A study of Mus musculus with 860 samples.

Results

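Megakaryocytes are the large bone marrow and embryonic blood cells that shed platelets. They fill alpha granules with chemokines and adhesive proteins, carry receptors for von Willebrand factor, fibrinogen and collagen on their surface, and build a microtubule coil from a tubulin of their own. In the embryo they arise early, before and beside haematopoietic stem cells, and their surface integrin CD41 is also found on the first haematopoietic cells that emerge from the aorta. A set of 10 such genes was followed here out of 46078 genes in the count table. They were the granule proteins Pf4, Ppbp, Thbs1 and Treml1, the receptor genes Itgb3, Gp9, Gp5 and Gp1bb, the tubulin gene Tubb1 and the lipid enzyme gene Alox12. The members were chosen by their measured levels, high in the Louvain cluster that the authors numbered 9, so the high levels there are described and not tested.

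The cells came from the aorta-gonad-mesonephros (AGM) region of mouse embryos of strain CD1/Gf1+ at embryonic days E10.5 and E11.5, all carrying the Gfi1:tomato reporter and without treatment. Pooled AGMs were sorted on CD31, cKIT and the reporter. Haemogenic endothelium (GFI1+ HE) was the CD31+cKIT-GFI1+ gate, and cells of the intra-aortic haematopoietic clusters (IAHC), CD31+cKIT+, were taken as GFI1+ IAHC or GFI1- IAHC. Each of the 860 cells gave 1 Smart-Seq2 library, a full-length RNA library without molecular identifiers, and 775 cells were kept by the authors. Of the kept cells 14.1% were E10.5 GFI1+ HE and 22.2% E11.5 GFI1+ HE. E10.5 and E11.5 GFI1+ IAHC made up 14.97% and 30.97%, and GFI1- IAHC 17.4% at E11.5 and 3 cells at E10.5. They held 134284 to 2296823 counts, with a median of 727732. No embryo is named for a cell, so each group stands for 1 sample and no test between groups was made. No plate held kept cells of both stages, so within a batch the stage and the plate cannot be told apart. Levels are counts per 1000000 counts (CPM) of the summed cells, and intervals are exact 95% intervals that cover counting error only.

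The stretches just upstream of these genes were read for 3 short motifs of blood transcription factors, because the members were high together in the same cells. The RefSeq table of promoters (GRCm38.p6) held 8 of the 10 members and had no entry for Itgb3 or Thbs1. In the 150 bases before each start, the letters GATAA or TTATC, a form of the site read by GATA factors, were in 2 windows, those of Gp9 and Gp5. The letters GGAAG or CTTCC, a form of the site read by ETS factors such as FLI1, were in 6. TGTGGT or ACCACA, read by RUNX factors, were in none of the 8. Other forms of these sites were not searched for. Of 32851 windows of the same length in the table, 13.3% held the first motif, 47.7% the second and 8.40% the third, counting both strands. Below are the windows of both chemokine genes, of both glycoprotein genes with a GATAA match and of Alox12, which was also read in most cells of cluster 4. They are written 5′ to 3′ on the strand of the gene, with motif matches in capitals.

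Pf4 (chr5:90772285-90772434, + strand): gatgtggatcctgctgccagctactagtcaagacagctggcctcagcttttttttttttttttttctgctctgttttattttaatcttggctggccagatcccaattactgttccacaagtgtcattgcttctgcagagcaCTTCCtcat

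Ppbp (chr5:90768368-90768517, + strand): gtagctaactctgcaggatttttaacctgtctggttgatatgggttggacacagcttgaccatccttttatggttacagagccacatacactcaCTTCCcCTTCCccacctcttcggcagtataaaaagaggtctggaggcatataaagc

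Gp9 (chr6:87777920-87778069, + strand): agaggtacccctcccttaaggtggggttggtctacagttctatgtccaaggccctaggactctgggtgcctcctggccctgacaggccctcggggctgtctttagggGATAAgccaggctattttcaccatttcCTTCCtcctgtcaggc

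Gp5 (chr16:30310782-30310931, - strand): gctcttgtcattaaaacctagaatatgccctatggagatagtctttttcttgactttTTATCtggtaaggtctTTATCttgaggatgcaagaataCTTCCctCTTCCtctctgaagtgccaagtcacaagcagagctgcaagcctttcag

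Alox12 (chr11:70255371-70255520, - strand): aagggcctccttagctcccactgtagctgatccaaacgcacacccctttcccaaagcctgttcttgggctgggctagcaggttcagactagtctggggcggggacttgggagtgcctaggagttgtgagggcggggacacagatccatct

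The windows of Gp9 and Gp5 held both a GATAA and a GGAAG match, as did 5.47% of all windows. Gp5 had 2 matches of each, and Alox12, like Treml1, had no match of any of the 3 motifs.

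Cluster 9 held 12 of the 775 kept cells, 1.55% of the cells and 1.71% of the counts. Of all member reads in kept cells, 562619 of 624850, or 90.04%, lay in these 12 cells. The 10 genes together made up 5.66% of the counts of cluster 9, 56593 CPM, against 109.03 CPM in the 763 cells outside it. The share of a gene's reads in cluster 9 was highest for Gp5 (97.7%), Thbs1 (97.4%) and Tubb1 (96.3%), and lowest for Itgb3 (66.4%) and Ppbp (77.3%). Treml1 (94.8%), Pf4 (90.6%), Gp9 (89.4%), Gp1bb (86.1%) and Alox12 (80.5%) lay between them.

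The sorter had placed 11 of the 12 cells in E10.5 GFI1+ HE, where they were 10.1% of the cells (exact interval 5.15 to 17.3%). The other cell made up 0.581% (0.0147 to 3.20%) of E11.5 GFI1+ HE. Among IAHC no cell was in cluster 9, which allows shares, at 3 cells of the group, of up to 2.59% at E10.5 (GFI1+), 1.25% at E11.5 (GFI1+) and 2.22% at E11.5 (GFI1-). Within the E10.5 HE the share was 2 of 18 cells in batch GL58 and 9 of 91 in GL78, so both batches that held this group held such cells.

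The label of HE was set against marker lists. All 15 megakaryocyte markers had reads in at least 6 of the 12 cells, and 13 had reads in all 12. Of 10 endothelial markers, Cldn5 was at 0, Cdh5 had reads in 2 cells and Emcn in 1, whereas Pecam1 (CD31) had reads in 11 cells, Kdr in 10, Tie1 in 9 and Esam in 9. Of 8 arterial markers 6 were at 0, and of 8 progenitor markers 5 were at 0, among them Ptprc, Myb, Cd34 and Gfi1 itself. All 4 mast cell and basophil markers and 5 of 7 macrophage markers were at 0. Among erythroid markers, Gata1 and Epor had reads in all 12 cells and Hbb-bt in 7, while Hba-x and Alas2 were at 0.

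**Figure D1:**
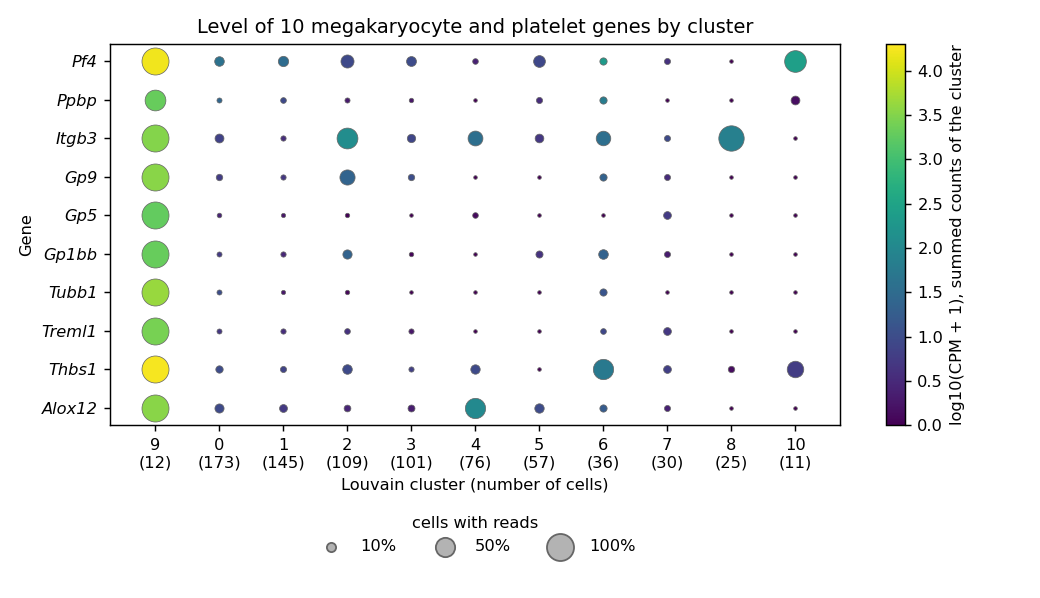
Level of each gene in each Louvain cluster, as log10 of CPM plus 1 of the summed cells (colour) and as the percent of cells with reads (dot size), with the number of cells under each cluster. All 10 genes are highest in cluster 9 (12 cells), and outside it the larger dots belong to Itgb3 in clusters 2 and 8, Alox12 in cluster 4, Pf4 in cluster 10 and Thbs1 in cluster 6.

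The chemokine genes were read at very different levels from cell to cell. Pf4 (chr5:90772435-90773383, plus strand, GRCm38) encodes platelet factor 4, an abundant chemokine of alpha granules, and had 1702, 13261 and 52445 CPM as the lowest, median and highest of the 12 cells. Ppbp (chr5:90768518-90770063, plus strand), the gene of the CXCL7 precursor, ends 2371 bases before Pf4 and had reads in 7 of the 12 cells, with a median of 130.6 and a highest value of 13146 CPM. The 5 cells without Ppbp reads all had Pf4 reads, and 1 of them held 20138 CPM of Pf4. Per kilobase of exon, the summed level was 22511 CPM for Pf4, the highest of the 10 genes, and 1873 CPM for Ppbp.

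The other alpha granule genes were read in every cell. Thbs1 (chr2:118111876-118127133, plus strand), the gene of thrombospondin 1, had 4275, 14027 and 34594 CPM as lowest, median and highest. Its exons overlap in part those of an antisense lincRNA, Gm29233, to which 0 counts were assigned. Treml1 (chr17:48359916-48367176, plus strand), a receptor of the granule membrane, had 534, 2584 and 7100 CPM. Per kilobase of exon the summed levels were 2875 CPM for Thbs1 and 1834 CPM for Treml1.

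Itgb3 (chr11:104608000-104670476, plus strand), the beta 3 integrin chain that joins CD41 to form the fibrinogen receptor, ranged from 1802 to 5647 CPM with a median of 2822, and its coefficient of variation over the 12 cells, 38.4%, was the lowest of the set. That of Ppbp, 187.3%, was the highest. Gp9 (chr6:87778072-87779768, plus strand), Gp5 (chr16:30307685-30310779, minus strand) and Gp1bb (chr16:18620317-18622403, minus strand) are chains of the von Willebrand factor receptor. They had medians of 4246, 1771 and 1901 CPM. Their lowest cells held 588, 280 and 196.4 CPM and their highest 8713, 3871 and 4800 CPM. Per kilobase the summed levels were 3949 CPM for Gp9, 973 for Gp1bb, 856 for Gp5 and 528 for Itgb3, the lowest of the set. Gp1bb is less certain than the rest: 1902 of its 2087 exon bases are also exon of Sept5 on the same strand. How reads of these bases were counted, and so the level of Gp1bb and its level per kilobase, depends on the counting.

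Tubb1 (chr2:174450695-174457882, plus strand), the beta 1 tubulin of the platelet microtubule coil, and Alox12 (chr11:70241457-70255353, minus strand), the platelet 12-lipoxygenase, had the widest spread among the genes read in all 12 cells, with coefficients of variation of 94.7% and 100.3%. Tubb1 ran from 156.5 to 10507 CPM with a median of 4224, and no cell lay between 1797 and 6652 CPM. It held 57.1% of the cluster's reads from the 7 beta tubulin genes counted, ahead of Tubb5 with 19.8% and Tubb4b with 17.2%. Alox12 ran from 40.5 to 9918 CPM with a median of 2607. Per kilobase the summed levels were 3082 CPM for Tubb1 and 848 CPM for Alox12.

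The members moved together across the 12 cells. Pearson's r of log2 CPM plus 1, over 12 cells, was 0.24 to 0.95 in the 45 pairs of genes, with a median of 0.74. The 6 cells with the most Tubb1 were also the 6 with the most Thbs1 and the 6 with the most Alox12, and 5 of them were among the 6 highest for Ppbp, Itgb3, Gp9, Gp5, Gp1bb and Treml1. For Pf4 it was 4. The points share their libraries and their totals, so a gene that takes more of a library leaves less for the others, and these relations are a description.

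The same 6 cells were those with the fewest genes detected, 2520 to 4838 against 7242 to 8539 in the other 6. Over the 12 cells, r between the number of genes detected and log2 of the summed member CPM plus 1 was -0.90. On the same scale it was -0.93 for Thbs1 and -0.36 for Pf4. With the mitochondrial percent of counts, r was -0.75 for the sum, -0.88 for Thbs1 and -0.13 for Pf4. The part of RNA quality or content in these values was not tested. The E11.5 cell had the fewest genes (2520) and the highest sum, 139616 CPM, and led the set for Pf4, Ppbp, Itgb3, Gp9, Gp5 and Gp1bb. The 2 cells of batch GL58 had the lowest sums, 12816 and 13431 CPM, so both cells from that batch lay below all 10 cells of GL78.

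**Figure D2:**
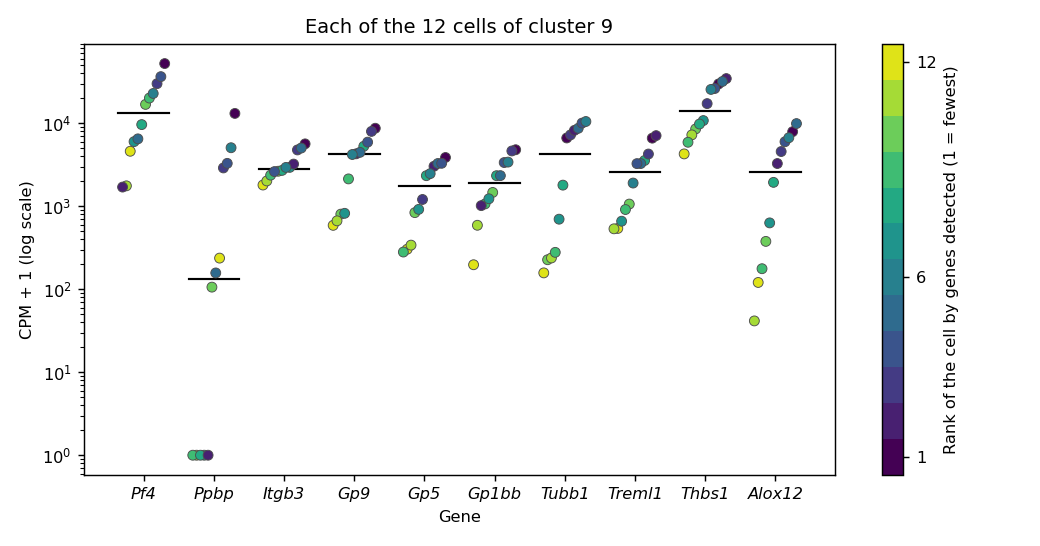
CPM plus 1 of each gene in each of the 12 cells of cluster 9 on a log axis, cells ordered by value, with the median as a line and the colour giving the cell's rank by genes detected. Cells with few genes detected (dark) lie at the top for Tubb1, Thbs1 and Alox12, and 5 cells have no Ppbp reads.

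Surface CD41 was recorded for 11 of the 12 cells at the sort, and it was no part of how the genes were chosen. These cells lay between 21418 and 53304 fluorescence units, with a median of 36632. The 82 other E10.5 HE cells of GL78 lay between -119 and 12105, with a median of 340, so the ranges did not overlap. Among the 709 kept cells outside cluster 9 with a value, 4 exceeded 10000 units and 1 exceeded the lowest cluster 9 cell. CD31 was 2596 to 14686 in cluster 9. That lay within the 2192 to 90298 of the other E10.5 HE of GL78, whose median was 30037. cKIT was -1508 to -574 in cluster 9 and -207 to 861 in the others, without overlap, as for CD41. Whether the strong CD41 dye shifted the other channels was not tested, and how the signals were compensated is not given in the sources used here. Within cluster 9, r between CD41 and log2 of the summed member CPM plus 1 was 0.18 over 11 cells.

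**Figure D3:**
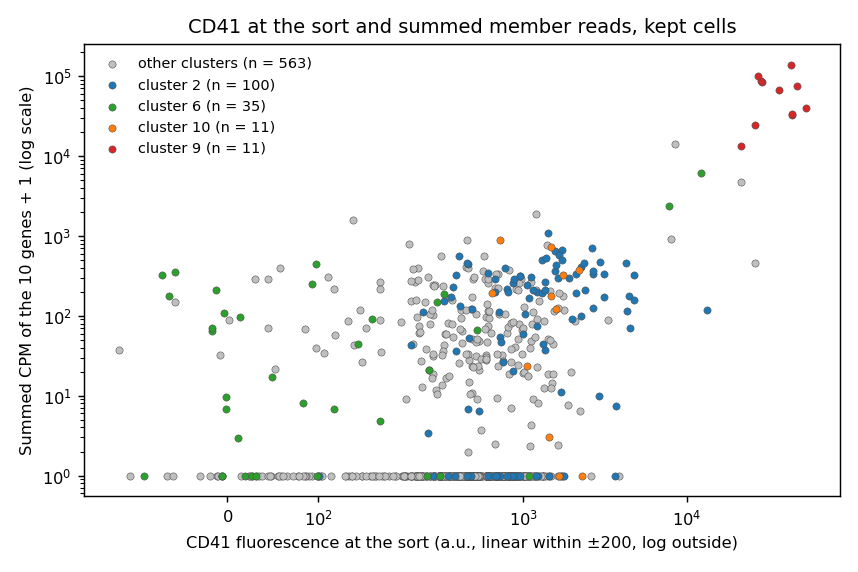
CD41 fluorescence at the sort against the summed CPM of the 10 genes plus 1, for kept cells with a recorded value, with clusters 2, 6, 9 and 10 coloured. All 11 cluster 9 cells (red) lie at 21418 units or more and above 10000 CPM, and the other cells with over 10000 units are 4.

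Outside cluster 9 member reads were thin but common. At least 1 read of at least 1 member was found in 44.4% of 763 cells, and in 37.7% when each cell was thinned to 50000 counts. A single member was held by 72.3% of the cells with reads, 54 cells held 2 and 40 held 3 or more, of which 18 were in cluster 2. Of cells with Alox12 reads 63.6% held no other member, and the share was 54.3% for Itgb3 (82 cells) and 54.2% for Pf4 (52 of 96). By contrast, 0 of 15 Ppbp cells, 1 of 14 Treml1 cells and 1 of 7 Tubb1 cells held no other member. Gp5 had reads in 8 cells outside cluster 9 and Tubb1 in 7, and Tubb1 was at 0 in 6 clusters.

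Itgb3 was the member most often read outside cluster 9. It had 122.9 CPM in cluster 2, which was led by Mpo, Prtn3 and other haematopoietic genes, with reads in 64 cells (58.7%, and 52.3% after thinning). In cluster 2 the E10.5 groups held 225.3 CPM (HE, 11 cells) and 180 CPM (GFI1+ IAHC, 42 cells), and the E11.5 groups 27.9 CPM (HE, 7 cells), 44.5 CPM (GFI1+ IAHC, 39 cells) and 14.8 CPM (GFI1- IAHC, 10 cells). Thus both E10.5 groups lay above the 3 E11.5 groups. By batch the level in cluster 2 was 164.7 CPM in GL78 and 36.8 to 58.7 CPM in the other 3. The lowest was that of GL69, whose 6 cells were all E10.5 GFI1+ IAHC. In GL58 1 cell held 80.8% of the counts. In cluster 8, led by the germ cell genes Dppa5a and Dppa3, Itgb3 had reads in 22 of 25 cells at 70.5 CPM, and was 59.4, 61.3 and 78.6 CPM in the 3 batches that held such cells. In cluster 4, led by the arterial genes Gja5 and Hey2 with Htra1 and Eln, it had 77.6 CPM in 27 E10.5 HE cells and 2.19 CPM in 42 E11.5 HE cells, and by batch 61.8 CPM in GL78, 3.00 in GL53 and 0.856 in GL58.

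The alpha chains read in Itgb3 cells differed with the cluster. Itga2b (CD41 chain) had reads in all 12 cells of cluster 9, at 6542 CPM, and Itgav, the partner in the vitronectin receptor, had reads in 1. In cluster 2, 48 of the 64 Itgb3 cells also had Itga2b reads and 22 had Itgav reads. In cluster 8, 0 of the 22 Itgb3 cells had Itga2b reads and 15 had Itgav reads. In cluster 4 the numbers were 3 and 17 of 22. Among all cells of cluster 2, 51.4% had Itga2b reads and 42.2% Itgav reads. In cluster 8 the shares were 0% and 60%, and in cluster 4 17.1% and 78.9%. In cluster 4 the Itgb3 cells thus lay near the shares of the whole cluster. In cluster 8 they were 22 of its 25 cells, so their shares could differ little from those of the cluster. Over all 763 cells outside cluster 9, 22.1% had Itga2b reads and 60.9% Itgav reads.

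Alox12 had its level outside cluster 9 in cluster 4. It was 103.1 CPM in cluster 4, with reads in 42 of 76 cells, and at most 15.9 CPM in any other cluster outside 9. Within cluster 4 it was 75.4 CPM in E10.5 HE and 128.7 CPM in E11.5 HE, with reads in 15 of 27 and 23 of 42 cells. The 3 batches gave 135.2 (GL53), 214.9 (GL58) and 63.5 CPM (GL78). Of the other members in cluster 4, Pf4 had reads in 2 of the 76 cells, and Ppbp, Gp9 and Treml1 in none.

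Gp9 and Gp1bb were also read in cluster 2. Gp9 had 22.7 CPM there, with reads in 33 cells (30.3%), and its level ran from 12.2 to 29.8 CPM in the 5 groups. By batch it was 0.740 CPM in GL69, 15.2 in GL53, 26.4 in GL78 and 33.6 in GL58. Gp1bb had 21.8 CPM in 11 cells, with 0 counts in both HE groups, 1.60 CPM in E10.5 GFI1+ IAHC, 41.4 CPM in E11.5 GFI1+ IAHC and 119.1 CPM in E11.5 GFI1- IAHC, where 1 cell held 73.97% of the counts. Gp5, the chain that travels with them on platelets, had reads in 1 cell of cluster 2.

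Pf4 and Thbs1 each had a cluster of their own outside cluster 9. Pf4 had 258.95 CPM in cluster 10, led by C1qc, Trem2 and other macrophage genes, with reads in 7 of 11 cells. It reached 214.6 CPM in cluster 6, but from 2 of 36 cells, of which 1 gave 90.6% of the counts. Thbs1 had 53.1 CPM in cluster 6, which was led by Col1a1, Mfap4 and other mesenchymal genes, with reads in 20 of 36 cells. Elsewhere it was at most 8.46 CPM. Neither Gp5 nor Gp9 had a read in cluster 10, and Tubb1, Treml1, Itgb3 and Alox12 were at 0 there as well.

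A few cells outside cluster 9 held most of the set. Reads of 6 or more members were found in 6 cells, of which 2 had all 10. Summed member CPM in the 6 were 14041, 6042, 4759, 2363, 926 and 777. The highest, an E11.5 GFI1+ IAHC cell of cluster 0, held 17.7% of all member reads outside cluster 9, and its CD41 was 8490 units. Gp6 and Gp1ba were also read in it. The 4759 CPM cell was an E11.5 HE cell of cluster 1 with all 10 members and CD41 at 21225. Both cells had reads of all 10 endothelial markers, including Cldn5 at 666 and 1034 CPM, which was at 0 in cluster 9. Gata1 was at 0 in 5 of the 6 cells and at 13.4 CPM in the other, against 257.3 to 3919 CPM in cluster 9.

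The other 4 of these cells were of several kinds. The 6042 CPM cell, an E10.5 HE cell of cluster 6, had CD41 at 12105 and no read of an endothelial marker. The 2363 CPM cell, an E11.5 GFI1- IAHC cell of cluster 6, had reads of 6 of 7 macrophage markers and CD41 at 7781. The 926 and 777 CPM cells were E11.5 GFI1+ IAHC cells of cluster 0 with all 10 endothelial markers and CD41 at 8010 and 1385. The 6 libraries held 501907 to 1415909 counts and 5934 to 7750 genes, against medians of 726701 and 7472 for all cells outside cluster 9. No doublet caller was run, and whether any library holds RNA of 2 cells or of attached platelets was not tested. Without these 6 cells, a choice made after the data were seen, the level outside cluster 9 was 64.7 CPM in place of 109.03.

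Member reads were not limited to plates that held a cluster 9 cell. Outside cluster 9, the 11 plates without such a cell had 68.99 CPM and member reads in 40.3% of cells, and the 4 plates with one had 153.3 CPM and 49.6%. In cluster 2 the levels were 95.4 and 237.4 CPM, and in cluster 4 they were 138.2 and 155.9 CPM. In cluster 0 they were 19.4 and 201.8 CPM, with 78.9% of the counts of the second from 1 cell. In cluster 1 they went the other way, 82.8 and 19.4 CPM, with 70.7% of the counts of the first from 1 cell. Carry-over between wells of a plate was not tested beyond these values. Batch GL53 held no cluster 9 cell at all, and 2 of the 6 cells with 6 or more members came from it.

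The ratio of HE over GFI1+ IAHC was taken within a batch, on the scale log2 of CPM plus 1, and a gene at 10 CPM or more in either group was called where every batch gave a difference of 2-fold or more with 1 sign. With fewer than 10 kept cells of a group in a batch, that batch was not used. At E10.5 only GL78 could be used, so these ratios have no replicate. All 10 members were called higher in HE, a direction that follows from where cluster 9 lies, against 5.47% of the 9577 genes measured. The median over the 10 was 6.87, and that of all measured genes was -0.02. Pf4 was 1475.3 CPM in HE and 8.44 in IAHC, and Thbs1 was 1773 and 2.46 CPM. Gp5 was 190.8 CPM in HE and at 0 counts in IAHC, which makes it at least 4656-fold higher. Itgb3 had the smallest ratio, 1.89, from 340 and 90.99 CPM.

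Without cluster 9 the E10.5 picture was mixed. The median over the members was 1.44, or 1.92 with a group at 0 counts set to a floor of 3, and 5 of the 10 reached 10 CPM. Pf4 (2.81), Ppbp (3.04) and Alox12 (2.83) were called higher in HE, against 3.66% of 9475 genes. Gp9 was called lower (-1.27), against 2.53%. Itgb3 was at -0.69. The Ppbp reads of HE came from 1 of 82 cells, and 94.3% of its Pf4 counts came from 1 cell as well, with the rest in 7 others. Leaving out clusters 6 to 10 in all turned the median to -0.72 and Pf4 and Ppbp to -1.02 and -1.16, while Alox12 remained at 2.61.

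At E11.5 GL53, GL58 and GL78 could be used, and only GL78 held a cluster 9 cell, a single one. The median of the members was 1.81, or 2.17 with floors, with batch medians from 0.15 to 4.15 (SD 2.14, n = 3 batches). Alox12 alone was called, at 3.34 ± 0.87 (SD over 3 batches), with 100 CPM in HE and 6.96 in IAHC, while 0.917% of 9923 genes were called higher. Without the cluster 9 cell the median was -0.43, and Alox12 was 1.75 ± 2.14 and no longer called. No member was then called higher (0.919% of 9901 genes were), and Itgb3 was called lower in HE, at -2.50 ± 1.46 (3.56 and 18.7 CPM), against 0.939% of the genes. At E10.5 Itgb3 without cluster 9 had been at -0.69 (55.9 and 90.99 CPM).

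**Figure D4:**
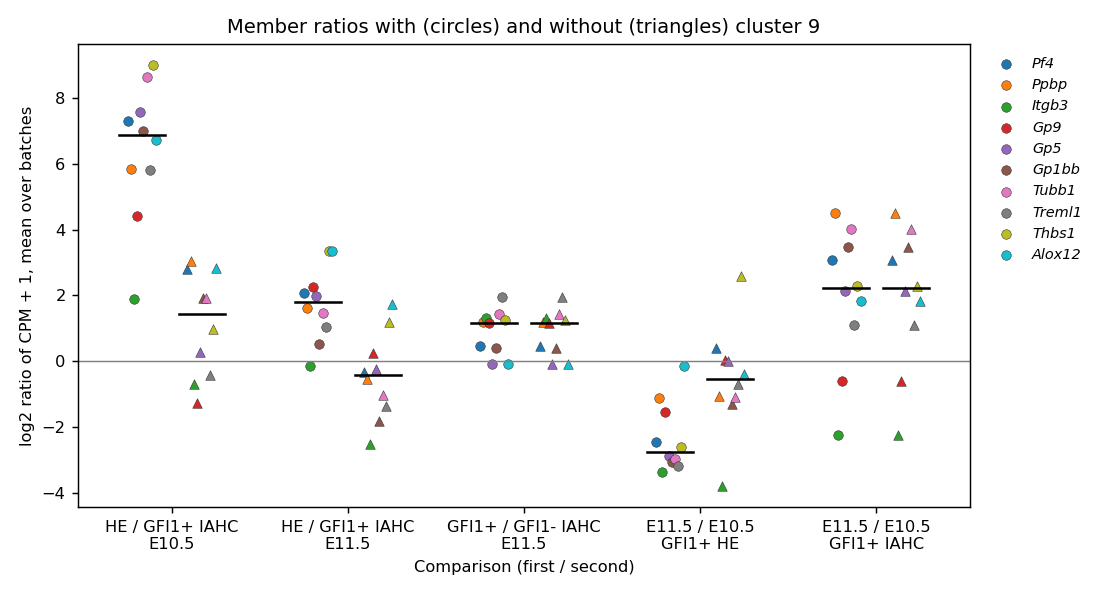
Log2 ratio of CPM plus 1, averaged over batches, for each gene in the 5 comparisons, with all clusters (circles) and without cluster 9 (triangles), medians as lines. The E10.5 HE over GFI1+ IAHC median drops from 6.87 to 1.44 without cluster 9, and both comparisons without HE are the same with and without it because no IAHC cell was in cluster 9.

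GFI1+ and GFI1- IAHC at E11.5 could be compared in GL53 and GL78. The median of the members was 1.18, or 0.82 with floors, with batch medians of 0.14 and 2.01, and 0 of 6 measured members were called, against 0.493% of 10345 genes called higher and 1.76% lower. Pf4 was 46.9 CPM in GFI1+ and 27.8 in GFI1- cells, a ratio of 0.47 ± 0.64 (SD, n = 2 batches). Ppbp was 24.7 and 3.39 CPM, at 1.19 ± 4.00. The spread between batches was larger than the ratio for both. Without the 6 cells that held 6 or more members the median was -0.03.

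Between stages in HE, over GL58 and GL78, the median of E11.5 over E10.5 was -2.74 (batch medians -4.71 and -0.69), and the mean ratio of each of the 10 members was below 0. Within batches Ppbp was higher at E11.5 in GL78 (361.5 and 123.5 CPM), Alox12 was higher in GL58 (0.50) and Pf4 was at -0.04 in GL78. Itgb3 (-3.36 ± 3.15), Tubb1 (-2.97 ± 2.21) and Thbs1 (-2.61 ± 2.12) were called lower, against 1.99% of 9808 genes. Cluster 9 held 2 of 18 E10.5 HE cells in GL58 and 9 of 91 in GL78. At E11.5 it held 0 of 19 and 1 of 40, so lower levels at E11.5 follow from where cluster 9 lies. Without cluster 9 the median was -0.53, and Itgb3 alone was called lower, at -3.80 ± 2.63 (36.6 CPM at E10.5 and 1.96 at E11.5), against 1.28% of 9729 genes. Thbs1 turned to 2.60 ± 3.06 without cluster 9 and was not called. Tubb1 was then at 1.78 CPM at E10.5 and 0 at E11.5, under the 10 CPM that a call needed.

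In GFI1+ IAHC the same ratio could be taken in GL78 alone. Pf4 was 8.44 CPM at E10.5 and 79.2 at E11.5, Ppbp 1.16 and 48.6, and Tubb1 0.205 and 18.6. With Gp1bb, Thbs1 and Alox12, 6 members were called higher at E11.5, against 8.79% of 9797 genes. Itgb3 was called lower, at 90.99 and 18.6 CPM (-2.23), against 2.48%. The median was 2.22, or 2.69 with floors, and -0.30 without the 6 cells with 6 or more members, 3 of which were E11.5 GFI1+ IAHC cells of the same plate of GL78. Without those cells Pf4 was at -0.33, Ppbp at -0.84 and Tubb1 at -0.27, while 3 members were above 0, the highest at 2.44. Itgb3 was thus called lower at E11.5 in HE and, in GL78 alone, in IAHC. The other batch of E10.5 GFI1+ IAHC, GL69, had no E11.5 cells to compare. Its 29 cells held Itgb3 at 8.12 CPM, below the 18.6 CPM of E11.5 in GL78.

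A further 60 genes of megakaryocytes and platelets, listed by role from general knowledge, were compared in the same cells. Of these, 48 had their highest level of all clusters in cluster 9, among them all 10 signalling genes, all 7 cytoskeletal genes, 14 of 16 receptors, 9 of 12 granule genes, 3 of 4 eicosanoid enzymes and 5 of 11 transcription factors. Of 13080 genes at 10 CPM or more in a cluster, 10.53% were highest in cluster 9, and so were 47 of the 59 listed genes that reached this level. Among receptors Itga2b had 6542 CPM in cluster 9 and 21.6 outside, and Gp6, the collagen receptor, had 305.2 and 0.0946 CPM. Itga2, a collagen-binding integrin chain, was at 2.51 CPM in cluster 9 and 48.2 outside, and Selp (P-selectin) had reads in 2 of the 12 cells. Fermt3, which activates integrins, had 4941 CPM, and Tbxas1, the thromboxane synthase that shares its lipid source with Alox12, had 1065 CPM.

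Among transcription factors, Gata1 (1099 CPM in cluster 9, 3.68 outside) and Gfi1b (733 and 4.77 CPM), both regulators of megakaryocyte and red cell genes, were the highest in proportion. Fli1, an ETS factor of endothelium and megakaryocytes, was 180 CPM in cluster 9 and 140 outside. Runx1 was 127.5 CPM in cluster 9 and highest in cluster 2, at 221.6 CPM. Between HE and GFI1+ IAHC at E10.5, 31 of 57 measured genes of these lists were called higher and 3 lower with cluster 9, and 4 of 50 higher and 14 lower without it. Over all measured genes the shares were 5.47% higher and 1.99% lower with cluster 9, and 3.66% and 2.53% without it.

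**Figure D5:**
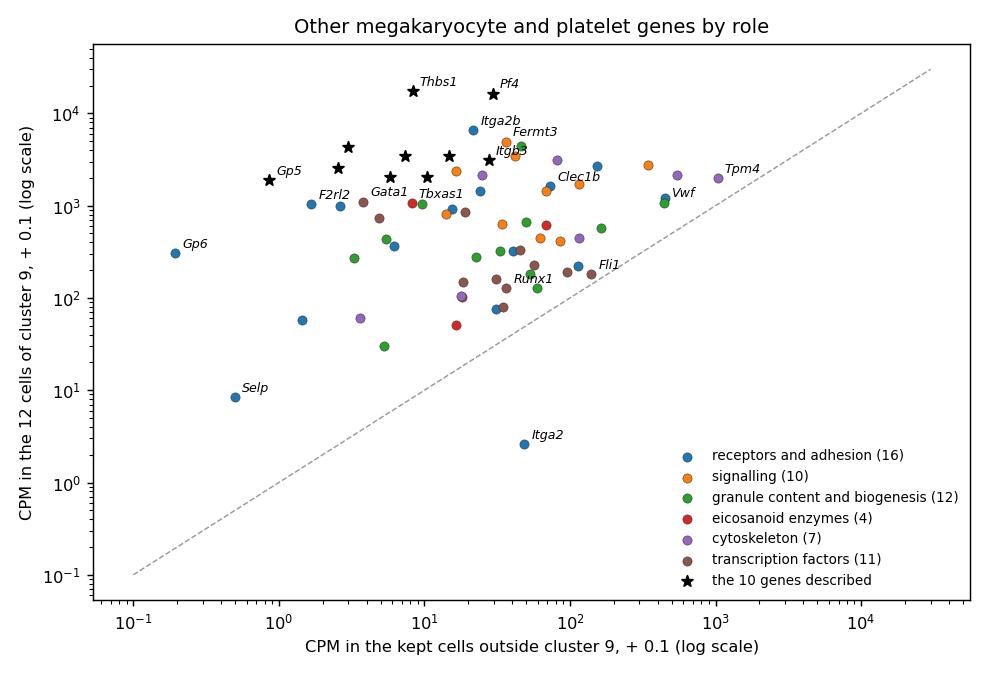
CPM plus 0.1 in the 763 kept cells outside cluster 9 (x) and in the 12 cells of cluster 9 (y) on log axes, for 60 other megakaryocyte and platelet genes by role (circles) and the 10 genes described (stars), with equality as a dashed line. Itga2 alone lies below the line, and the levels of the 10 genes are 113.2 to 2485 times higher in cluster 9 than outside it.

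The genes whose pattern over the 775 kept cells was most like the mean of the 10 were found among 3348 genes with at least 50 CPM in cluster 9. Among the nearest by Pearson's r of log2 CPM plus 1 were Mpig6b (0.85), Ly6g6f, Gp6, Slamf1, F2rl2, Cd226, Gm11662, Mfsd2b, Npy, Tmem40 and Ache (0.70). Picked by likeness to genes that were chosen as high in cluster 9, these 11 genes had most of their reads there. The shares ran from 75.6% for Npy to 99.3% for Cd226. Over the 763 cells outside cluster 9 their r lay between -0.02 for Ache and 0.46 for Mfsd2b, so the likeness rests largely on the 12 cells.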

How the data were processed

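Members and gene lists were chosen with earlier results of these data known. The authors aligned the reads with STAR 2.7.3 to mm10 and counted them per gene with HTSeq 0.9.1, per the labels, and deposited raw counts of 860 cells for 46078 genes and 92 spike-in rows with 0 counts. The annotation release and strand setting are not given in the sources used here. A normalized, log-transformed table (Scanpy 1.4.4) was not used. The fluorescence intensity of 9 signals, the fraction of mitochondrial counts, Louvain clusters and Cyclone phases were deposited by the authors in an annotation of the cells. Kept cells had at least 2500 genes and 50000 counts and at most 5% mitochondrial counts, the limits the authors state.

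Symbols and exon lengths came from GENCODE M21 (GRCm38), and 45143 genes had a symbol. For CPM, counts of the cells of a cluster, or of a group within a batch, were added up and set against all their counts. Ratios used a pseudocount of 1 CPM in each batch with 10 or more kept cells on either side, and batches were averaged with equal weight. For bounds, 0 counts were replaced by a floor of 3 in that group of that batch. No tests were made, since no animal is named for a cell. Intervals are exact Poisson or Clopper-Pearson at 95%. A call needed 10 CPM or more in either group and 2-fold or more with 1 sign in each batch. The text names the 10 members whatever their values, the highest and lowest of 60 role genes, and the 12 genes most alike, of which 1 is not reported here. The call rule was tested on simulated data. Alternatives were other pseudocounts (0.1 and 10 CPM), TMM factors (edgeR 4.0.16), per-cell means, thinning to 50000 counts (seed 7), all deposited cells, and leaving out cells, clusters or batches. Python 3.11.15, numpy 2.4.6, pandas 2.3.3, scipy 1.17.1 and R 4.3.3 were used.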

Additional observations from a re-analysis of the deposited data

Results flagged for a closer look

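For 4 members at 10 CPM or more in HE and in IAHC, the sign of the E11.5 over E10.5 ratio in both batches of HE was opposite to that in IAHC. On the log2 scale Pf4 was -2.46 in GFI1+ HE and 3.09 in GFI1+ IAHC, Gp1bb -3.06 and 3.47, Tubb1 -2.97 and 4.02, and Thbs1 -2.61 and 2.30. HE values are means of GL58 and GL78 and IAHC values come from GL78 alone. In GL78 the HE values were -0.04 for Pf4, -0.62 for Gp1bb, -1.41 for Tubb1 and -1.11 for Thbs1. Without cluster 9 the means in HE were 0.42 for Pf4 and 2.60 for Thbs1, with the same sign as in IAHC. Gp1bb and Tubb1 were then under 10 CPM in HE at both stages. Gp5 and Treml1, under 10 CPM in IAHC at both stages, also had opposite signs, with 2.15 and 1.11 in IAHC. The difference between HE and IAHC was not tested. In HE 11 cells at E10.5 (10.1%) and 1 at E11.5 (0.581%) were cluster 9 cells. In IAHC the ratios of Pf4 and Tubb1 were -0.33 and -0.27 without the 6 cells that held 6 or more members. Over all 10 members 3 ratios in IAHC were then above 0, the highest at 2.44, and 6 were below 0.

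The 85 cells that the authors left out also held member reads. Their summed level was 427 CPM, against 109.03 CPM in the kept cells outside cluster 9, with 249.02 CPM from Pf4 and 103.7 CPM from Thbs1. Pf4 had reads in 36 of the 85 cells, and 33 of these 36 also had reads of at least 2 of the complement genes C1qa, C1qb and C1qc, which macrophages make. That was so for 44 of the 85 cells in all. Of the Thbs1 cells 11 of 15 had such reads. In the kept cells outside cluster 9, 12 of 96 Pf4 cells had them, out of 20 cells with such reads. Reads of 3 or more members were found in 5 left-out cells, all of batch GL53. The E11.5 GFI1- IAHC cell with 9 members had 7309 CPM, 141886 counts and CD41 at 19861 units.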

How the results depend on the processing

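No paired analysis was possible because the cells carry no replicate number that groups share. Ratios were instead taken within batches, without a test. For HE over GFI1+ IAHC at E10.5 (6.87) the median was 7.28 and 4.33 with pseudocounts of 0.1 and 10 CPM, 1.44 without cluster 9 and -0.72 without clusters 6 to 10. At E11.5 (1.81) it was -0.43 and -0.50 without these cells, and 0.85 to 2.60 without a batch, the lowest without GL78. For GFI1+ over GFI1- IAHC (1.18) it was 0.14 without GL78 and 2.01 without GL53, and -0.033 without the 6 cells outside cluster 9 with 6 or more members (chosen after seeing the data). For HE between stages (-2.74) it was 0.091 without clusters 6 to 10, -4.71 without GL78 and -0.69 without GL58. For IAHC between stages (2.22) it was 2.93 and 0.93 with pseudocounts of 0.1 and 10 CPM, 1.97 as a per-cell mean, 2.47 thinned to 50000 counts and -0.30 without the 6 cells. The share of member reads in cluster 9 (90.04%) was 89.9% thinned, 89.7% with each cell weighted alike, 87.6% without the cell with most member reads, 93.9% without the 6 cells, and 54.9 to 92.7% without a batch, the lowest without GL78, which held 10 of the 12 cells. The level outside cluster 9 (109.03 CPM) was 107.01 as a per-cell mean, 68.99 on plates without a cluster 9 cell, 89.9 without the highest cell, 97.6 without clusters 6 to 10, 58.7 without Thbs1, Itgb3 and Alox12, and 64.7 without the 6 cells. Cells outside with member reads (44.4%) were 40.4% at 10 CPM or more, 37.7% thinned, 40.3% on plates without a cluster 9 cell and 18.7% without those 3 genes. With TMM scaling the medians of the 5 comparisons were 6.91, 1.84, 1.22, -2.76 and 2.18. Of single members at E10.5, Pf4 was -1.02, Ppbp -1.16, Itgb3 -0.75, Gp9 -2.56, Gp1bb -0.69, Tubb1 -0.28 and Treml1 -2.20 without clusters 6 to 10, and Itgb3 -0.69, Gp9 -1.27 and Treml1 -0.40 without cluster 9. Thbs1 in HE between stages was 2.60 without cluster 9 and 3.03 without clusters 6 to 10. In IAHC between stages Pf4 was -0.33, Ppbp -0.84 and Tubb1 -0.27 without the 6 cells. Of the other values for single members 401 moved less than their spread and the rest more. The spread was the SD over batches or, in comparisons with 1 batch, the counting interval. Some could not move, as those of both IAHC comparisons without cluster 9. Values that were not called also changed sign, as at E11.5 for HE over GFI1+ IAHC, where 9 members were above 0 and 3 were without cluster 9. The cause of these shifts was not tested. With 1 batch there is no SD between batches, and with 12 cells from pooled embryos the number of animals behind cluster 9 is unknown.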
